A study of Homo sapiens with 12 samples.

Results

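The receptors described here are 10 genes of the tumour necrosis factor (TNF) receptor superfamily, TNFRSF1A, TNFRSF1B, TNFRSF9, TNFRSF10A, TNFRSF10B, TNFRSF10D, TNFRSF21, FAS, CD40 and LTBR, chosen by name from the 58735 genes of the deposited expression table. Poly(A) RNA of NCM460, an epithelial cell line labelled as normal human colon, had been sequenced in 12 libraries, 3 in each of 4 groups. The groups were unedited cells in medium (medium), the same cells with TNF-α (TNF-α), cells with TNF-α and bufotenidine (TNF-α + bufotenidine; the study calls this compound 5-OH-TMT, a quaternary ammonium derivative of bufotenine), and cells with HTRA2 knocked down that also received TNF-α (HTRA2 knockdown). HTRA2 is a serine protease of the mitochondria. No group held the compound or the knockdown without TNF-α, and the labels give no dose or duration. The study describes its knockdown comparison as against a control siRNA, but the labels put no siRNA on the TNF-α libraries and do not say which siRNA each knockdown library received. If the TNF-α libraries were not transfected, a response to transfection and a response to loss of HTRA2 cannot be told apart. Nothing in the labels says that the 3 libraries of a group came from separate cultures, so every p below measures the spread between libraries, which may be technical.

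TNF receptors are single-pass membrane proteins that are engaged by trimeric ligands of the TNF family. One branch, the death receptors, carries a cytoplasmic death domain through which adaptors and caspases are recruited, and the other branch binds TRAF adaptor proteins directly and activates NF-κB and MAP kinases. Decoy receptors bind the ligand without passing on a full death signal. In the gut, TNF is released by immune cells and acts on the epithelium, and blocking TNF is an established treatment of inflammatory bowel disease.

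Between 31008429 and 37624399 reads fell on genes in each library, and 2.95% to 4.68% of them were mitochondrial, with the lowest share in HTRA2 knockdown replicate 2. HTRA2 itself had 15.4, 14.0 and 14.2 FPKM (fragments per kilobase of gene, scaled to the size of the library) with TNF-α, and 7.44, 7.18 and 7.22 FPKM in the knockdown, a log2 difference of -0.98 ± 0.0869 (SE; limma adjusted p = 2.77e-05). Of the epithelial markers, 6 of 6 were expressed, with KRT8 at 1155 FPKM in medium. Of the 6 colon epithelial markers (CDX1, CDX2, VIL1, LGALS4, CDH17 and GPA33), 0 reached a mean of 0.1 FPKM and CDX2 had 0 reads in all 12 libraries, whereas 5 of 5 squamous epithelial markers were expressed, KRT5 at 125 FPKM in medium. The data therefore go against the colonic part of the label, and the cells are called NCM460 here. The 8 leukocyte markers summed to 0.118 to 0.885 FPKM over the libraries. In bulk RNA, fewer cells that express a gene and less RNA per cell cannot be told apart.

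The start sites of the receptors were searched for motifs of NF-κB and AP-1, factors that act downstream of TNF, and for an interferon response element. RefSeq promoter windows (GRCh38.p14, 250 bases before to 50 bases after the start) were used for 6 of the 10 receptors, 8 windows in all because FAS has 3. CD40 had no entry, and TNFRSF10A, TNFRSF10B and TNFRSF10D were left out of the search. Both strands were searched for the NF-κB consensus, the AP-1 site TGANTCA and the interferon response element GAAANNGAAA. The stretches with a match are printed below, 30 bases each, in the direction of the gene and with the matched letters in capitals. The part of these letters in the receptor levels was not tested. TNFRSF10A and TNFRSF10B, which also rose with TNF-α, were not searched.
TNFRSF9, NF-κB consensus, chr1:7940893-7940922, minus strand: agctgtggtGGGAATTTCCCatgagacccc
TNFRSF9, AP-1, chr1:7940865-7940894, minus strand: ccgcccctggcTGAGTCAccgcactcctgt
FAS, NF-κB consensus, chr10:88991264-88991293, plus strand: ggtcgctggaGGGGGACCCCggttggagag
FAS, AP-1, chr10:88990548-88990577, plus strand: caagttgcTGAATCAatggagccctcccca
TNFRSF1B, interferon response element, chr1:12166961-12166990, plus strand: tggcccgctggggcgcgggcTTTCGCTTTC

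In TNFRSF9 the NF-κB letters were matched at 2 overlapping positions, 74 and 73 bases before the start, and the AP-1 letters began 44 bases before it. Both TNFRSF9 stretches lie within an exon of another transcript of the gene in GENCODE 29. The FAS match to the NF-κB consensus lies in a different FAS window from its AP-1 match, 157 and 242 bases before their respective starts, and within exons of both FAS and ACTA2. The TNFRSF1B stretch lies within an exon of MIR7846, and its match is to the interferon letters read on the opposite strand. The windows of TNFRSF21, TNFRSF1A and LTBR held no match. Over all 35116 promoters, 11.3% held the NF-κB consensus, 7.71% the AP-1 letters and 3.57% the interferon element. A match describes letters and not a bound site.

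For comparison, the stretches before the start that overlap no annotated exon are printed for the pair of receptors with the highest RNA levels, TNFRSF21, which was higher with TNF-α, and TNFRSF1A, which was not. No letters are in capitals because neither stretch held a match.
TNFRSF21, chr6:47309906-47310155, minus strand: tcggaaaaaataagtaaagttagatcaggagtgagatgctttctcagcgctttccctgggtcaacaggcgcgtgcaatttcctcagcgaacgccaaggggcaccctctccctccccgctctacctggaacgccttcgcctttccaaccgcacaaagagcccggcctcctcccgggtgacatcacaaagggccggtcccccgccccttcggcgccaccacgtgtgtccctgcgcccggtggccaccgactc
TNFRSF1A, chr12:6342115-6342326, minus strand: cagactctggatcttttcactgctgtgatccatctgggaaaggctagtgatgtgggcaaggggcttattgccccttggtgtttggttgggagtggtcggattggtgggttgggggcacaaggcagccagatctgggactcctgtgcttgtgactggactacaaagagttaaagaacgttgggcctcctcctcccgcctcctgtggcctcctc

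The receptors spanned a wide range of RNA levels. By mean FPKM over the 12 libraries, TNFRSF21 was highest at 88.5, followed by TNFRSF1A at 63.1, LTBR at 29.8, TNFRSF10B at 20.9, CD40 at 17.6, TNFRSF10D at 9.36, TNFRSF10A at 8.76, FAS at 2.796, TNFRSF9 at 0.339 and TNFRSF1B at 0.00564. Some neighbours in this order did not differ beyond their spread in medium, where TNFRSF21 (67.4 to 71.9 FPKM) overlapped TNFRSF1A (61.4 to 72.6 FPKM), TNFRSF10B (11.98 to 12.7 FPKM) overlapped CD40 (10.9 to 13.8 FPKM), and TNFRSF10D (7.90 to 8.55 FPKM) overlapped TNFRSF10A (6.36 to 8.08 FPKM). The summed level of the 10 receptors was 205 ± 12.01 FPKM (SD, n = 3) in medium, 235 ± 9.76 with TNF-α, 240 ± 7.82 with TNF-α + bufotenidine and 285 ± 10.4 in the HTRA2 knockdown. In medium, TNFRSF1A made up 32.0% ± 1.10 of this sum and TNFRSF21 33.7% ± 0.723 (SD, n = 3 each). Their mean shares were 24.8% and 38.1% with TNF-α, and 27.2% and 33.9% with TNF-α + bufotenidine. In the knockdown they were 22.1% ± 1.73 and 40.1% ± 2.32. Between TNF-α and the knockdown the TNFRSF21 share overlapped (37.0% to 39.0% and 38.6% to 42.8%), while the TNFRSF1A share did not. The mean of TNFRSF1A itself was 65.6 FPKM in medium, 58.2 with TNF-α and 63.3 in the knockdown, while the sum rose. TNFRSF1B, with at most 4 reads in any library, was the receptor under the mean of 0.1 FPKM required for testing, so 9 of the 10 were tested. TNFRSF9 passed that filter only through the groups with TNF-α.

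**Figure D1:**
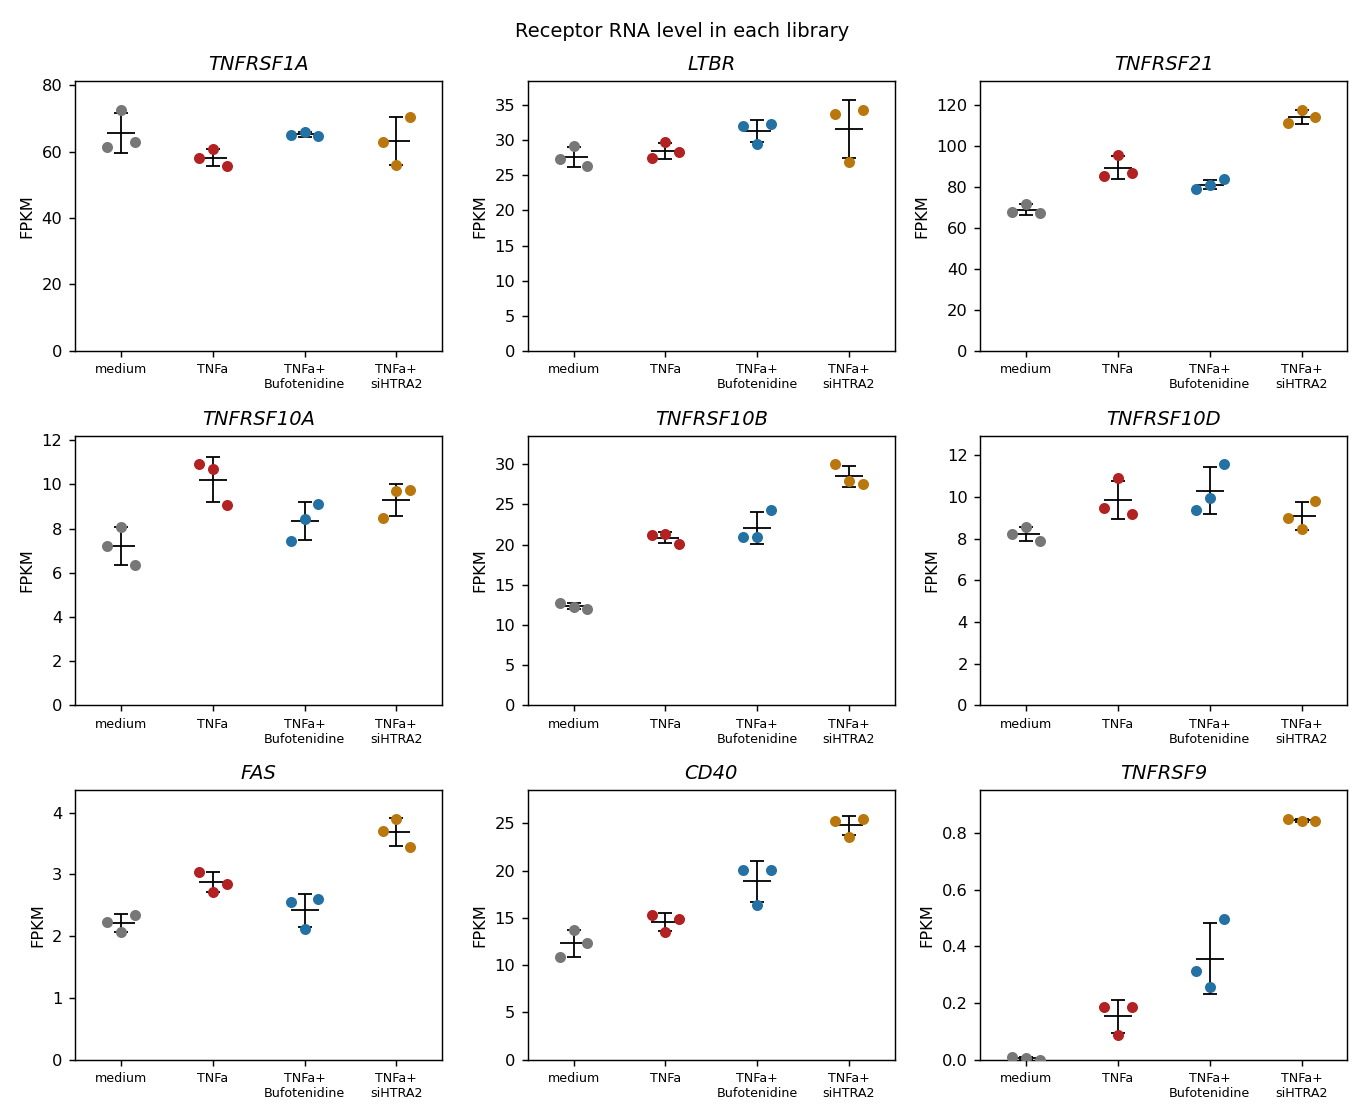
RNA level (FPKM, vertical axes from 0) of 9 receptors in each of the 12 libraries, by group. Points are libraries and the black marks are the mean and SD of 3. TNFRSF9 libraries lie in 4 groups that do not overlap, from at most 0.00912 FPKM in medium to 0.841 FPKM or more in the HTRA2 knockdown, while for LTBR the medium and TNF-α libraries overlap, as do those of bufotenidine and the knockdown. For TNFRSF1A the TNF-α libraries lie just below those of medium.

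The first comparison asked which receptor transcripts changed when the cells were given TNF-α. TNFRSF9, TNFRSF10A, TNFRSF10B and TNFRSF21 rose, 4 of the 9 tested, beside 3.22% of all 18079 genes tested that were called higher (limma, adjusted p under 0.05). No receptor was called lower. TNFRSF9 entered the test only through the groups with TNF-α, so counts and medians that hold it are a description. Under a filter of 1 FPKM it was not tested, and 3 receptors were called, beside 6.87% of all genes in either direction. The median log2 difference of the 9 was 0.36, beside -0.00200 for all genes. Every TNF-α library lay above every medium library for 6 of the 9, beside 11.1% of all genes. TNFRSF9 was the 1 receptor that also met the study's threshold for a differentially expressed gene (a fold of at least 2 and an unadjusted p of at most 0.05), beside 1.76% of all genes higher by that rule. The fold used here was the fitted 2.37, which depends on the pseudocount of 0.1, and the study names no pseudocount.

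The ligand-binding receptors of TNF and lymphotoxin come first. TNFRSF1A (ENSG00000067182, chromosome 12, 6328757 to 6342114, minus strand) encodes TNFR1, the broadly expressed death domain receptor for TNF. It had 61.4, 72.6 and 62.9 FPKM in medium, 58.2, 60.9 and 55.6 with TNF-α, 65.2, 65.9 and 64.6 with TNF-α + bufotenidine, and 63.1, 56.1 and 70.6 in the HTRA2 knockdown. The TNF-α libraries were all just below the medium libraries, and the knockdown libraries spread across the range of the other 3 groups. With TNF-α the log2 difference was -0.17 (95% interval -0.36 to 0.02; limma adjusted p = 0.409), and no comparison called the gene. The interval leaves out a rise of more than 0.02 on the log2 scale with TNF-α.

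TNFRSF1B (ENSG00000028137, chromosome 1, 12167003 to 12209228, plus strand) encodes TNFR2, which lacks a death domain and is best known from lymphocytes and endothelium. It had 0, 2 and 0 reads in medium, 4, 0 and 0 with TNF-α, 0, 0 and 3 with TNF-α + bufotenidine, and 0 in each knockdown library. These counts sit at or about the floor of 3 reads, so no fold is given and TNFR2 RNA was not detectable beyond a few reads at this depth.

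LTBR (ENSG00000111321, chromosome 12, 6375045 to 6391571, plus strand) encodes the lymphotoxin β receptor, which signals through TRAF proteins to the alternative NF-κB pathway. Its levels were 27.4, 29.2 and 26.4 FPKM in medium, 27.5, 29.8 and 28.3 with TNF-α, 32.0, 29.5 and 32.4 with TNF-α + bufotenidine, and 33.8, 26.8 and 34.3 in the HTRA2 knockdown. Groups next to each other in level overlapped, and knockdown replicate 2 lay apart from the other two of its group. Against TNF-α, the knockdown differed by 0.14 on the log2 scale (95% interval -0.06 to 0.34; limma adjusted p = 0.320). Without knockdown replicate 2 the difference was 0.26 and was called (adjusted p = 0.0221). LTBR and TNFRSF1A lie together within 62.8 kb, with SCNN1A, a sodium channel subunit, between them. LTBR shares 422 exonic bases with SCNN1A on the opposite strand. SCNN1A was at 17.8 FPKM with TNF-α and 37.0 FPKM in the knockdown, and since the strand setting of the counting is not stated, LTBR values are uncertain to that extent.

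Of the 5 receptors with a death domain, TNFRSF21, TNFRSF10B and TNFRSF10A rose with TNF-α, while TNFRSF1A and FAS were not called. TNFRSF21 (ENSG00000146072, chromosome 6, 47231532 to 47309905, minus strand) encodes DR6, a death domain receptor studied mainly in neurons and T cells. It had 67.6, 71.9 and 67.4 FPKM in medium, 85.5, 95.9 and 87.0 with TNF-α, 79.2, 80.9 and 83.8 with TNF-α + bufotenidine, and 111, 118 and 114 in the HTRA2 knockdown. The 4 groups did not overlap, with medium lowest, TNF-α + bufotenidine next and the knockdown highest. TNF-α raised it by 0.37 ± 0.0605 on the log2 scale (SE; limma adjusted p = 0.00323), and it was called in every setting tried. The gene overlaps no other annotated gene, and none of its 50-base stretches recurs in another transcript.

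TNFRSF10B (ENSG00000120889, chromosome 8, 23020133 to 23069179, minus strand) encodes DR5, the TRAIL receptor through which TRAIL most often kills epithelial cells. Its levels were 12.7, 12.3 and 11.98 FPKM in medium, 21.2, 21.3 and 20.1 with TNF-α, 21.0, 20.9 and 24.4 with TNF-α + bufotenidine, and 29.98, 28.0 and 27.5 in the HTRA2 knockdown. All 9 libraries with TNF-α lay above the medium libraries, the TNF-α and bufotenidine groups overlapped, and the knockdown lay above both. With TNF-α the rise was 0.75 ± 0.0705 on the log2 scale, a fitted fold of 1.69 (limma adjusted p = 4.87e-05), and it was called in every setting tried. TNFRSF10B shares 67 exonic bases with RHOBTB2 (mean 4.22 FPKM) on the opposite strand.

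TNFRSF10A (ENSG00000104689, chromosome 8, 23190452 to 23225126, minus strand) encodes DR4, the other death domain receptor for TRAIL. It had 7.19, 8.08 and 6.36 FPKM in medium, 10.9, 10.7 and 9.04 with TNF-α, 7.44, 8.42 and 9.13 with TNF-α + bufotenidine, and 8.47, 9.69 and 9.74 in the HTRA2 knockdown. The TNF-α libraries were above all medium libraries, whereas the bufotenidine libraries overlapped both of these groups. TNF-α raised it by 0.50 ± 0.112 on the log2 scale (limma adjusted p = 0.0255), a call that rested on single libraries: without medium replicate 1 or 3, or without TNF-α replicate 1 or 2, the adjusted p was 0.0746 to 0.109. The call was also lost with no filter, without the trend and when only these groups were fitted (0.0523 to 0.108). The gene shares 266 exonic bases with AC100861.1 and 224 with TNFRSF10A-AS1, both on the opposite strand.

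TNFRSF10D (ENSG00000173530, chromosome 8, 23135588 to 23164030, minus strand) encodes DcR2, a TRAIL decoy receptor whose death domain is truncated. Its levels were 8.20, 8.55 and 7.90 FPKM in medium, 9.45, 10.9 and 9.18 with TNF-α, 9.38, 9.96 and 11.6 with TNF-α + bufotenidine, and 8.97, 8.47 and 9.79 in the HTRA2 knockdown. The TNF-α libraries all lay above medium by a small margin, and the knockdown libraries overlapped both. The log2 difference with TNF-α was 0.25 (95% interval 0.05 to 0.46; limma adjusted p = 0.206), which was not called. TNFRSF10C, the remaining TRAIL decoy receptor in the same 205 kb of chromosome 8, had at most 5 reads in any library.

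The balance within the TRAIL receptors is therefore given per library. The level of TNFRSF10B was 1.501 ± 0.0594 times that of TNFRSF10D in medium, 2.13 ± 0.156 times with TNF-α, 2.15 ± 0.0780 times with TNF-α + bufotenidine and 3.15 ± 0.293 times in the HTRA2 knockdown (SD, n = 3 each). The ratio overlapped between TNF-α and TNF-α + bufotenidine and lay apart in the other 2 groups. TNFRSF10B relative to TNFRSF10A was 1.72 ± 0.186 in medium, 2.05 ± 0.151 with TNF-α, 2.66 ± 0.171 with TNF-α + bufotenidine and 3.08 ± 0.395 in the knockdown. These ratios are per gene length and describe RNA, not receptors at the cell surface.

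**Figure D2:**
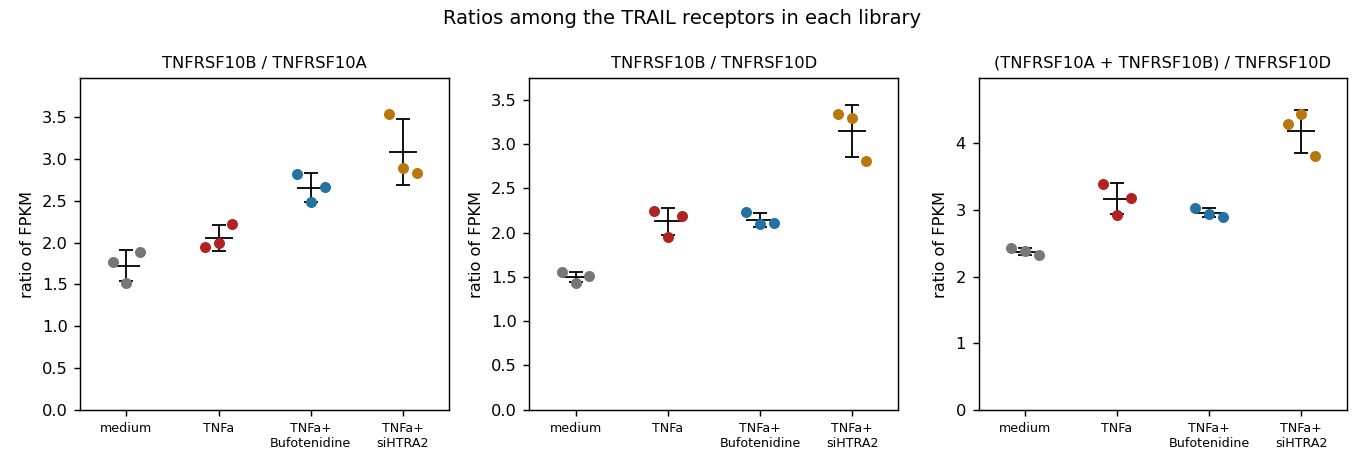
Ratios of FPKM among the TRAIL receptors (vertical axes from 0) in each library by group, with the mean and SD of 3. In the middle panel TNFRSF10B stands at 1.44 to 1.55 times TNFRSF10D in medium and at 2.81 to 3.34 times in the HTRA2 knockdown, with both other groups between.

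FAS (ENSG00000026103, chromosome 10, 88990582 to 89015785, plus strand) encodes the death domain receptor for FAS ligand. It had 2.23, 2.07 and 2.35 FPKM in medium, 3.04, 2.72 and 2.84 with TNF-α, 2.55, 2.11 and 2.60 with TNF-α + bufotenidine, and 3.70, 3.90 and 3.44 in the HTRA2 knockdown. The TNF-α libraries lay above medium and the knockdown above TNF-α, while the bufotenidine libraries overlapped medium and lay below TNF-α. With TNF-α the log2 difference was 0.36 (95% interval 0.14 to 0.58; limma adjusted p = 0.0813), which missed the threshold. FAS shares 380 exonic bases with ACTA2 on the opposite strand, a gene at 0.856 FPKM with TNF-α and 1.85 FPKM in the knockdown.

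The remaining 2 receptors have no death domain and act through TRAF proteins. TNFRSF9 (ENSG00000049249, chromosome 1, 7915894 to 7943165, minus strand) encodes 4-1BB, a costimulatory receptor of activated T cells. Its reads numbered 2, 1 and 0 in medium, 43, 17 and 44 with TNF-α, 70, 58 and 113 with TNF-α + bufotenidine, and 194, 192 and 194 in the HTRA2 knockdown, which is 0.153 ± 0.0575, 0.356 ± 0.125 and 0.844 ± 0.00494 FPKM in the groups with TNF-α (SD, n = 3 each). The 4 groups did not overlap, and the level stayed under 1 FPKM throughout. All medium libraries were at or under the floor of 3 reads per library. With medium set at that floor, the group mean of TNFRSF9 was at least 10.7-fold higher with TNF-α. It was at least 24.9-fold higher with TNF-α + bufotenidine and at least 58.9-fold higher in the knockdown. These bounds hold for group means and not for each library. The fitted log2 difference with TNF-α was 1.24 ± 0.273 (limma adjusted p = 0.0226). It depends on the pseudocount and is no measure of the fold, ranging from 0.20 to 4.63 over the other settings, and it was not called with a pseudocount of 1 (adjusted p = 0.224), when only these groups were fitted (0.107) or without medium replicate 2 or 3 or TNF-α replicate 1 or 3 (0.0538 to 0.0888).

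CD40 (ENSG00000101017, chromosome 20, 46118272 to 46129863, plus strand) encodes the receptor through which T cells activate B cells and dendritic cells, and which some epithelia also carry. It had 10.9, 13.8 and 12.3 FPKM in medium, 15.3, 13.5 and 14.9 with TNF-α, 20.1, 16.4 and 20.1 with TNF-α + bufotenidine, and 25.3, 23.6 and 25.5 in the HTRA2 knockdown. Medium and TNF-α overlapped, and each of the other groups lay above the group before it. With TNF-α alone the log2 difference was 0.24 (95% interval 0.02 to 0.46; limma adjusted p = 0.276), which was not called. TNF-α + bufotenidine against medium was called, at 0.61 ± 0.101 on the log2 scale (adjusted p = 0.00289).

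**Figure D3:**
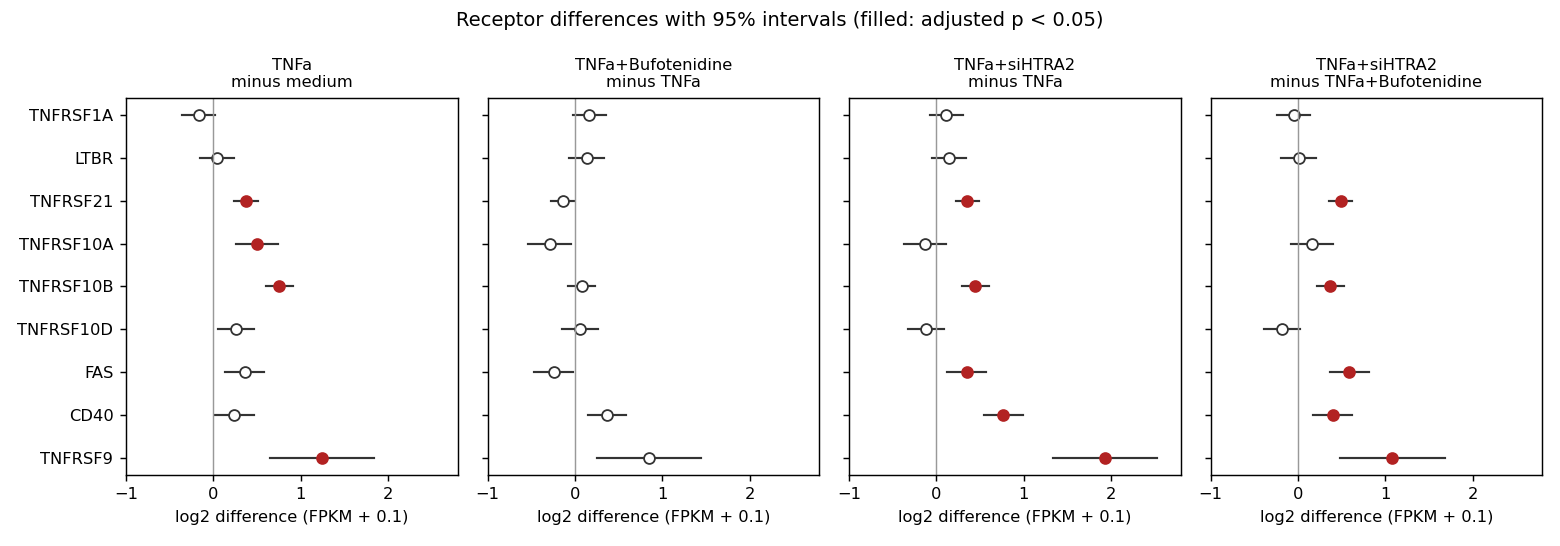
Log2 difference of FPKM + 0.1 (horizontal axes) with its 95% interval for 9 receptors (rows) in 4 comparisons (panels). Filled points have an adjusted p under 0.05: 4 with TNF-α, 0 with bufotenidine added, 5 in the HTRA2 knockdown against TNF-α and 5 in the knockdown against bufotenidine.

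The second comparison asked whether bufotenidine altered receptor transcripts in cells given TNF-α. Of the 9 receptors, 0 were called by limma at an adjusted p under 0.05, beside 0.0387% of all genes (7 of 18079). By voom on the recovered reads 0 receptors were called, beside 1.31% of all genes (236), and 0 when only these groups were fitted, beside 5.04% (911). By the study's threshold of fold and unadjusted p, 0 receptors were higher or lower, beside 124 genes higher and 147 lower of all 18079. At an unadjusted p under 0.05, 5 of the 9 differed, beside 20.1% of all genes. These were TNFRSF9 (log2 difference 0.85, 95% interval 0.25 to 1.44) and CD40 (0.37, 0.15 to 0.59), which were higher with bufotenidine, and TNFRSF10A (-0.29, -0.53 to -0.05), FAS (-0.24, -0.47 to -0.02) and TNFRSF21 (-0.14, -0.27 to -0.00493), which were lower, with adjusted p of 0.110 to 0.236. Every bufotenidine library lay above every TNF-α library for 3 receptors, TNFRSF1A, CD40 and TNFRSF9, beside 16.3% of all genes, and below for 2, TNFRSF21 and FAS, beside 15.5%. The intervals of the other receptors bound the difference: TNFRSF10B lay between -0.08 and 0.23, TNFRSF10D between -0.14 and 0.27, LTBR between -0.06 and 0.33 and TNFRSF1A between -0.02 and 0.35 on the log2 scale.

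Set against medium, the cells with TNF-α + bufotenidine still held more of 4 receptors, beside 4.99% of all genes called higher. This count is a description too, since it holds TNFRSF9. Under a filter of 1 FPKM, which left TNFRSF9 out, 4 receptors were called, beside 11.4% of all genes in either direction. The calls of the main fit were as follows. TNFRSF10B was higher by 0.83 ± 0.0705 on the log2 scale (limma adjusted p = 1.69e-05), CD40 as given above, TNFRSF21 by 0.24 ± 0.0605 (adjusted p = 0.0379), and TNFRSF9 with a fitted 2.09 (adjusted p = 0.000504). TNFRSF21 was the weakest of these calls, lost in 7 of 11 other settings and without any of 5 of the 6 libraries. TNFRSF10A, called with TNF-α alone, was at 0.21 here (95% interval -0.04 to 0.45; adjusted p = 0.321), and the difference between these contrasts is the comparison of bufotenidine with TNF-α, which did not call it.

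The third comparison asked whether receptors changed when HTRA2 was knocked down in cells given TNF-α. TNFRSF9, CD40, TNFRSF10B, TNFRSF21 and FAS rose, 5 of the 9 tested, beside 9.35% of all genes called higher. In either direction 17.4% of all genes were called. Under a filter of 1 FPKM, 4 receptors were called, beside 27.9% of all genes in either direction, so the share is larger among genes of like level. No receptor was called lower, while 1461 genes of all tested were. The median log2 difference of the 9 was 0.35, beside -0.00339 for all genes. For each of the 5 that rose, the knockdown libraries did not overlap the TNF-α libraries and were higher, beside 17.5% of all genes. TNFRSF9 was again the 1 receptor past a fitted fold of 2, beside 3.08%, and that fold likewise depends on the pseudocount.

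TNFRSF9 was higher in the knockdown by 1.93 ± 0.273 on the log2 scale (limma adjusted p = 0.000565), and its mean FPKM was 5.53 times that with TNF-α. CD40 was higher by 0.77 ± 0.101 (fitted fold 1.70, adjusted p = 0.000359). Both are TRAF-binding receptors, and both were called in all other settings that tested them. Among the death receptors, TNFRSF10B was higher by 0.45 ± 0.0705 (adjusted p = 0.00114), TNFRSF21 by 0.36 ± 0.0605 (adjusted p = 0.00189) and FAS by 0.35 ± 0.102 (adjusted p = 0.0359). The FAS call was the least stable, with an adjusted p of 0.0276 to 0.0588 and a call in 6 of 11 other settings, and a call in 1 of the 6 fits with a library left out (without knockdown replicate 3, adjusted p 0.0445). The other TRAIL receptors did not follow TNFRSF10B, with TNFRSF10A at -0.13 (95% interval -0.37 to 0.11) and TNFRSF10D at -0.11 (95% interval -0.32 to 0.09), and TNFRSF1A was at 0.11 (95% interval -0.07 to 0.30).

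The knockdown and bufotenidine share the TNF-α libraries as their control, so the difference between their effects was tested directly. In the HTRA2 knockdown against TNF-α + bufotenidine, 5 of the 9 receptors were higher, beside 7.85% of all genes, and each of the 5 had every knockdown library above every bufotenidine library (18.2% of all genes). Under a filter of 1 FPKM, 4 receptors were called, beside 26% of all genes in either direction, against 15.3% in the main fit. FAS differed by 0.59 ± 0.102 on the log2 scale (limma adjusted p = 0.00326), TNFRSF21 by 0.49 ± 0.0605 (adjusted p = 0.000403), TNFRSF10B by 0.37 ± 0.0705 (adjusted p = 0.00548), CD40 by 0.40 ± 0.101 (adjusted p = 0.0220) and TNFRSF9 by 1.08 ± 0.273 (adjusted p = 0.0216). Against TNF-α, FAS and TNFRSF21 had negative estimates with bufotenidine, which were not called, and positive ones in the knockdown, which were. TNFRSF10D had the opposite pair of signs (0.06 and -0.11), neither of them called. The CD40 call was lost without bufotenidine replicate 2 or knockdown replicate 1 or 3 (adjusted p 0.0539 to 0.0905), and the TNFRSF9 call without bufotenidine replicate 1 or 2 or knockdown replicate 1 or 2 (0.0614 to 0.0906), and with a pseudocount of 0.01 (0.0910). For LTBR (0.01, 95% interval -0.19 to 0.21) and TNFRSF1A (-0.05, 95% interval -0.24 to 0.14) the intervals leave out any difference beyond 0.24 on the log2 scale.

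The ligands that engage these receptors were measured in the same libraries. TNF, the ligand of TNFRSF1A and TNFRSF1B, had 0, 0 and 1 reads in medium, 24, 14 and 42 with TNF-α, 55, 39 and 84 with TNF-α + bufotenidine, and 237, 107 and 115 in the HTRA2 knockdown. The medium and knockdown libraries stood clear of the rest, and the TNF-α and bufotenidine libraries overlapped in reads. Against the floor of 3 reads per medium library, TNF, as a group mean, was at least 8.20-fold higher with TNF-α and at least 46.7-fold higher in the knockdown. In the knockdown against TNF-α it rose by 2.25 ± 0.354 on the log2 scale (limma adjusted p = 0.00112), and its mean of 2.52 FPKM included 3.92 FPKM in replicate 1.

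LTB, the membrane-bound subunit of the LTBR ligand, had 0, 2 and 0 reads in medium, 77, 73 and 64 with TNF-α, 97, 88 and 131 with TNF-α + bufotenidine, and 189, 219 and 164 in the knockdown. The 4 groups did not overlap, and LTB, as a group mean, was at least 22.6-fold higher with TNF-α than the medium floor. It rose by 1.30 ± 0.198 on the log2 scale in the knockdown against TNF-α (limma adjusted p = 0.000936). LTA, which pairs with LTB, reached at most 7 reads in any library, and TNFSF14, the other ligand of LTBR, was at 0.0938 ± 0.0398 FPKM in medium, 0.201 ± 0.0709 with TNF-α, 0.368 ± 0.0407 with TNF-α + bufotenidine and 0.369 ± 0.146 in the knockdown (SD, n = 3 each).

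TNFSF10, which encodes TRAIL, was at 0.604 ± 0.0616 FPKM in medium, 0.584 ± 0.106 with TNF-α, 0.626 ± 0.0159 with TNF-α + bufotenidine and 2.89 ± 0.143 in the HTRA2 knockdown. The knockdown libraries, at 2.75 to 3.03 FPKM, stood apart from the other 9, and the log2 difference from TNF-α was 2.14 ± 0.141 (limma adjusted p = 6.17e-06). TNFSF9, the 4-1BB ligand, moved the other way from its receptor with TNF-α, from 4.66 ± 0.313 to 3.01 ± 0.351 FPKM (log2 difference -0.62 ± 0.108, adjusted p = 0.00524). FASLG had at most 2 reads in any library and CD40LG had 0 reads in all 12, so the RNA of the usual T cell ligands of FAS and CD40 was not detectable at this depth.

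**Figure D4:**
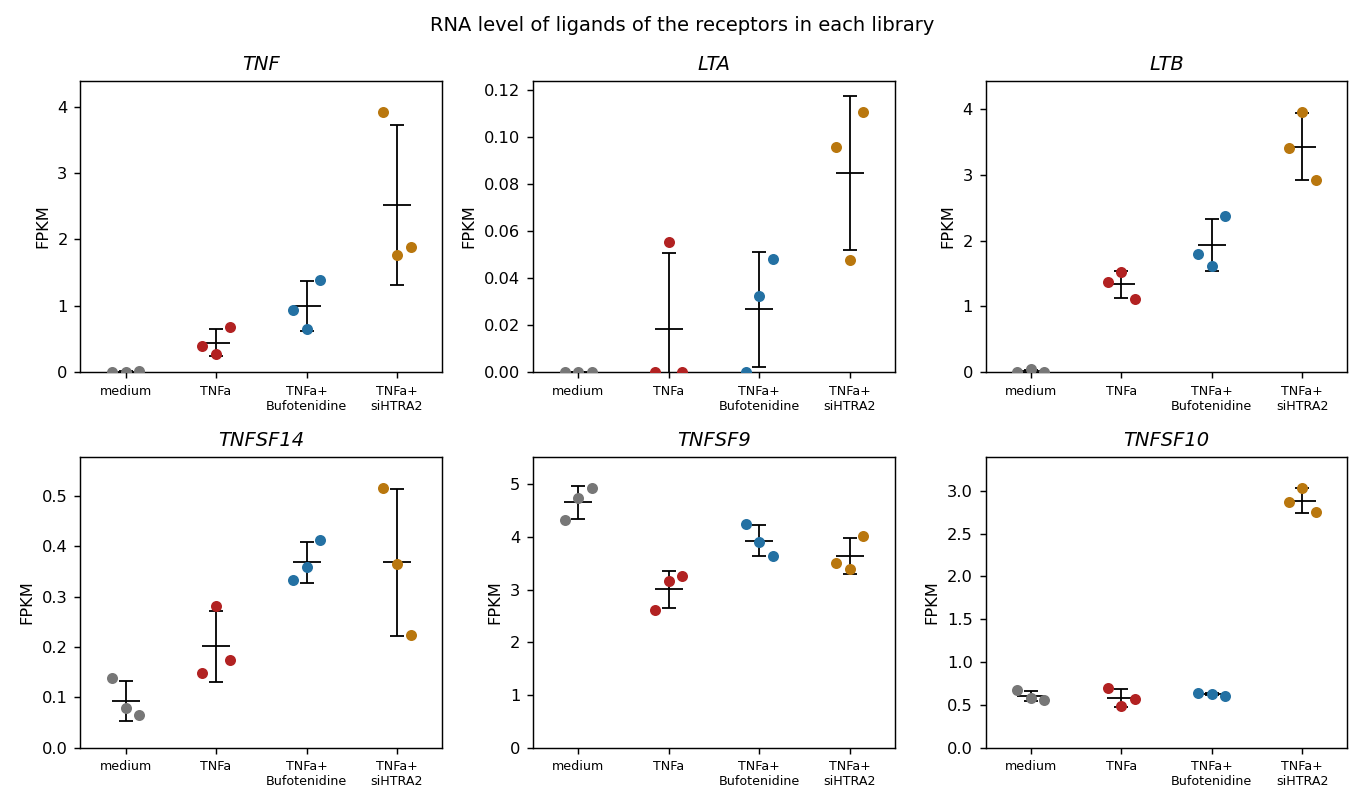
RNA level (FPKM, vertical axes from 0) of 6 ligands of the receptors in each library by group, with the mean and SD of 3. TNF and LTB lie at or near 0 in medium, TNFSF10 is high in the HTRA2 knockdown alone (2.75 to 3.03 FPKM), TNFSF9 is highest in medium, and LTA does not pass 0.111 FPKM.

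The rest of the superfamily and its signalling genes were counted from lists written by family and role. Among 18 ligands, 9 could be tested. With TNF-α, 4 rose (LTB, TNF, CD70 by 1.44 ± 0.282 and TNFSF15 by 0.80 ± 0.197 on the log2 scale), beside 3.22% of all genes, and 1 fell, TNFSF9, beside 0.885%. TNF and LTB passed the filter only through the groups with TNF-α, so a count that holds them is a description. In the knockdown against TNF-α, 4 rose, namely TNF, TNFSF10, LTB and TNFSF15 (1.28 ± 0.197), beside 9.35% of all genes, and 0 fell.

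Among 19 other receptors, 10 could be tested. TNFRSF11B, the soluble decoy osteoprotegerin, was the 1 that rose with TNF-α (1.45 ± 0.301 on the log2 scale, limma adjusted p = 0.0161), beside 3.22% of all genes, and 0 fell. In the knockdown 3 rose, EDAR by 1.45 ± 0.261, NGFR by 1.13 ± 0.173 and TNFRSF11B by 1.08 ± 0.301, beside 9.35% of all genes, and 1 fell, TNFRSF19 by 0.95 on the log2 scale, beside 8.08%. TNFRSF12A, the TWEAK receptor, was more abundant than any of the 10 receptors described here in medium, at 117 to 141 FPKM. It was not called in any of these comparisons.

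Of 16 adaptors and E3 ligases, BIRC3 (an inhibitor of apoptosis that is recruited to TNFR1) rose with TNF-α from 0.602 to 4.99 FPKM (2.89 ± 0.220 on the log2 scale, limma adjusted p = 9.58e-06) and TRAF3, an inhibitor of the alternative NF-κB pathway, by 0.99 ± 0.0780, and 0 fell, beside 3.22% of all genes called higher. In the knockdown BIRC3 rose by 0.83 ± 0.220 and TRAF1 by 1.24 ± 0.275, beside 9.35%. Of 10 genes of death signalling, 9 were tested. BID and CFLAR, the latter encoding the caspase 8 inhibitor c-FLIP, rose with TNF-α (0.45 ± 0.0983 and 0.69 ± 0.107), beside 3.22% of all genes, and CFLAR (0.97 ± 0.107) and CASP10 (0.89 ± 0.0970) were among the 3 that rose in the knockdown, beside 9.35%. Of 6 genes of receptor shedding and release (ADAM10, ADAM17, RHBDF1, RHBDF2, ERAP1 and the ADAM17 inhibitor TIMP3), ERAP1 and ADAM17 rose with TNF-α, beside 3.22% of all genes. In the knockdown 5 of the 6 rose, beside 9.35% of all genes, TIMP3 by 0.50 ± 0.0613, ERAP1 by 0.49 ± 0.0821, ADAM10 by 0.47 ± 0.104, ADAM17, the main sheddase of TNF and its receptors, by 0.46 ± 0.0834 and RHBDF2 by 0.40 ± 0.0955. None of these lists had a member called with bufotenidine added to TNF-α (0 by limma), where 4 other receptors, 4 ligands, 6 adaptors, 0 death signalling genes and 1 shedding gene had an unadjusted p under 0.05, beside the 20.1% of all genes given above. By the study's threshold of fold and unadjusted p, 1 ligand was higher and 0 genes of the other lists passed. Of all 18079 genes, 124 were higher and 147 lower by that rule.

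Markers of other cell types differed between the groups as follows. The 4 endothelial markers summed to 0.491 to 0.597 FPKM in medium, 1.42 to 1.57 with TNF-α, 1.77 to 2.01 with TNF-α + bufotenidine and 2.21 to 3.62 in the knockdown, with 1 marker, KDR, at 0 reads in every library. CDH5 was at 0.335 FPKM in medium, 1.32 with TNF-α and 2.79 in the knockdown. In these groups PECAM1 was at 0.148, 0.112 and 0.158 FPKM and VWF at 0.0778, 0.0573 and 0.0860, so neither mean rose with TNF-α. The 6 fibroblast markers summed to 1.001 to 1.15 FPKM in medium and 2.62 to 3.25 in the knockdown, of which COL1A1 alone was above the filter. The 8 leukocyte markers summed to 0.231 to 0.545 FPKM in medium, 0.118 to 0.274 with TNF-α, 0.320 to 0.455 with TNF-α + bufotenidine and 0.421 to 0.885 in the knockdown, so that medium overlapped the knockdown. CD14, the 1 above the filter, was at 0.397 FPKM in medium, 0.0946 with TNF-α, 0.258 with TNF-α + bufotenidine and 0.443 in the knockdown, while CD3E had 0 reads in all libraries and PTPRC at most 4. ITGAM had 0 reads in each medium library, 10 to 14 with TNF-α, 16 to 25 with TNF-α + bufotenidine and 13 to 30 in the knockdown. The part of these markers in the receptor differences was not tested.

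Finally, the genes whose pattern over the 12 libraries was most like that of each called receptor were listed by Pearson's r of log2(FPKM + 0.1) among 11177 genes with a mean of at least 1 FPKM, as a description over libraries that share groups. TNFRSF9 was most like ADGRF4 (r = 0.993), WNT4 (0.990) and FBXO32 (0.987). TNFRSF10B was most like TNFAIP2 (r = 0.995), ANKLE2 (0.992) and TRIM56 (0.992), and CD40 was like RNF19B (0.986) and WIPI1 (0.982). TNFRSF21 followed C3orf52 (r = 0.978), ADAMTS9 (0.974) and ARHGEF28 (0.974), and FAS followed CLINT1 (0.981), KLF5 (0.975) and TENT5A (0.975). TNFRSF10A had the loosest likeness, to AFDN (r = 0.887), ANXA2 (0.886) and DDX24 (0.880).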

How the data were processed

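Per the deposited file, values are FPKM for each gene in each library, made by the authors, and the submitters' processing notes name CASAVA 1.8, HISAT2 2.0.4, HTSeq 0.9.1 and hg38. The strand setting and the scaling of the FPKM are not given in the sources used here. Gene coordinates matched GENCODE 29 for 99.9% of genes. Reads per gene were derived back from FPKM and gene length (100% of values whole, within 0.05 of a read, in each library). log2(FPKM + 0.1) of the 18079 genes averaging at least 0.1 FPKM was fitted with limma 3.58.1 in R 4.3.3 (1 mean per group, all 12 libraries, eBayes with trend, 8 residual degrees of freedom, two-sided, Benjamini-Hochberg over all genes). The script was tested on simulated data with changes placed only in genes with many reads, so that test does not cover low genes. A pseudocount lessens the change of low genes such as TNFRSF9. Floors cover counting error only. Named are all 10 receptors, their ligands, TNFRSF10C, list genes called at a log2 difference of at least 1, the 3 most alike genes per called receptor and HTRA2; genes named below that size were chosen after their values were seen. The receptors and lists were chosen with earlier results of these data known. Alternatives covered the pseudocount, filter, scaling, groups fitted, trend, block, voom and each library left out. Some genes that these rules would name are not reported here.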

Additional observations from a re-analysis of the deposited data

How the results depend on the processing

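Receptors were recounted under 11 other settings and with each library left out. With TNF-α against medium, 4 became 2 when only these groups were fitted and 2 to 3 with a library left out, the lower value without medium replicate 3 or TNF-α replicate 1. In the knockdown against TNF-α, 5 became 4 to 5, and against bufotenidine 5 became 3 to 5 with a library left out, the lower value without bufotenidine replicate 2 or knockdown replicate 1. Against medium, bufotenidine gave 3 to 4, and against TNF-α 0 throughout. Over all genes, the count called for bufotenidine against TNF-α was 7 and ran from 1 without the trend or with the replicate block to 127 with a filter of 1 FPKM, 236 by voom and 911 when only these groups were fitted. With TNF-α against medium 742 became 392 when only these groups were fitted. With a library left out, 3152 for the knockdown against TNF-α fell as low as 2015 (without knockdown replicate 1), 2762 against bufotenidine as low as 1314 (without bufotenidine replicate 2) and 1184 for bufotenidine against medium as low as 605 (without bufotenidine replicate 3).

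Of 760 recomputed log2 differences, 707 kept their direction and side of the threshold, 43 lost a call, 2 gained one (LTBR as reported, and TNFRSF10D at 0.32 for bufotenidine against medium with a filter of 1 FPKM) and 8 changed sign, all uncalled and near 0. TNFRSF1A in the knockdown against bufotenidine turned to 0.0335 when each library was scaled to 1 FPKM sum, and ranged from -0.132 to 0.0332 with a library left out. LTBR in that comparison ranged from -0.0544 to 0.122, TNFRSF1A for bufotenidine against medium from -0.0517 to 0.0691, and TNFRSF10D for bufotenidine against TNF-α from -0.0224 to 0.138. The causes were not tested.

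Same-numbered libraries did not deviate together over the genes tested (correlations of -0.052 to 0.038). This gave no sign of pairing, but it cannot exclude that same-numbered libraries were handled together. With the replicate block, 4, 0, 4, 5 and 3 receptors were called in the order TNF-α against medium, bufotenidine against TNF-α, knockdown against TNF-α, knockdown against bufotenidine and bufotenidine against medium; FAS (adjusted p = 0.0538) and TNFRSF21 (0.0550) lost their calls in the third and last. With 3 libraries a group and at most 194 reads, TNFRSF9 is limited by depth more than the other receptors tested.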
